A study of Sus scrofa with 36 samples.

Results

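The growth hormone and insulin-like growth factor (IGF) axis was followed in pig liver through 9 genes chosen by name: the receptor GHR, the feedback inhibitor SOCS2, the ligands IGF1 and IGF2, the carrier subunit IGFALS and the binding proteins IGFBP1, IGFBP2, IGFBP3 and IGFBP4. They are 9 of the 13068 genes that could be named on the array. The array carried 37 probes for them, and 35 were well above background on at least 6 of the 36 arrays, so all 9 genes kept at least 1 probe. The 2 probes left out were 1 of 4 for IGF1, well above background on 3 arrays, and 1 of 3 for IGFBP4, on 2 arrays. The kept probes numbered 6 for GHR, 4 for SOCS2, 3 for IGF1, 9 for IGF2, 2 for IGFALS, 3 for IGFBP1, 4 for IGFBP2, 2 for IGFBP3 and 2 for IGFBP4.

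Growth hormone from the pituitary binds GHR on hepatocytes, which activates the kinase JAK2 and the transcription factor STAT5 and turns on genes such as IGF1, IGFALS and the inhibitor SOCS2. IGF1 leaves the liver as the main endocrine mediator of growth hormone, and most of it circulates in a complex with a binding protein and the acid-labile subunit, the product of IGFALS. IGFBP1 and IGFBP2 carry smaller amounts, are known to respond to insulin, feeding and amino acid supply, and mostly limit the access of IGFs to their receptor. Heat lowers feed intake in pigs, and feed intake is among the known regulators of these genes.

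Livers of 36 castrated male pigs were measured, 12 each from the breeds Large White (LW) and Creole (CR) and from their cross, labelled F1. Of each breed, 6 pigs were killed at thermoneutrality (TN, 24 °C) and 6 after heat stress (HS). The labels give 30 °C for HS, whereas the growth protocol gives 32 °C for up to 5 days, and per the study's methods the HS animals were killed after 4 or 5 days of heat. All animals entered at 11 weeks of age, had 10 days of adaptation, were fed ad libitum and were not fasted before slaughter, and the left lobe of the liver was sampled. Since TN pigs were killed first, the day of slaughter and a small gain in age cannot be told apart from the heat. Each animal gave 1 array, and p-values rest on the spread between animals of a group. Per the study's methods the pigs came in blocks of 4 littermates, so the 12 of a breed came from few litters. Pigs of a pen were killed at the same temperature. Litter and pen are not in the labels, so littermates and pen mates were treated as independent animals.

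The 36 arrays correlated at 0.979 to 0.994 over the kept probes, and none held the same values as another. Hepatocyte markers were present throughout: 7 of 10 listed genes were kept, and their brightest probes lay on average above 99.8% of kept probes. The first principal component carried 18.6% of the variance and separated LW from CR, whereas F1 scores (-21.3 to 36.9) overlapped those of CR (2.35 to 35.4). LW animals were compared with the CR median, and CR and F1 animals with the LW median. Nearness between F1 and CR was not assessed, so F1 animals close to CR were not flagged. By this rule 5 animals lay nearer to another breed than to their own: LW TN replicates 1 and 6, F1 HS replicates 1 and 2, and F1 TN replicate 3, the LW animals on the side of CR and the F1 animals on the side of LW. Values without them are given beside results that they change. Because these animals were picked on the same arrays, larger breed differences without them are no independent evidence. Marker genes of other liver cells moved with breed. Counts here are of probes with an adjusted p under 0.05 (limma), in either direction. Of 20 kept probes for Kupffer cells, the macrophages of the liver, 19 passed for CR minus LW, against 26.5% of all kept probes. For F1 minus LW 18 passed, against 18.4%. The median differences over the 20 probes were -0.90 and -0.67. The mean log2 level over the brightest probes of the 7 kept Kupffer cell genes was 11.12 to 11.93 in LW TN, 11.43 to 11.85 in LW HS, 10.49 to 11.05 in CR TN and 10.46 to 10.90 in CR HS, with F1 between 10.45 and 11.60. For CR minus LW 10 of 15 endothelial probes passed (median -0.32), 7 of 13 lymphocyte probes (-0.20) and 8 of 28 stellate and fibroblast probes (-0.25). Of 22 bile duct probes 2 passed (-0.27). The hepatocyte markers had a median CR minus LW of -0.02. The part of cell composition in the breed differences below was not tested, and in bulk liver fewer cells of a type and less RNA per cell cannot be told apart.

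Levels below are log2 of the quantile-normalized spot signal, and differences are on the same log2 scale, so that 1 unit is a 2-fold change. A probe was called when its limma p-value, adjusted by Benjamini-Hochberg over all 44796 kept probes, was under 0.05. Levels of different probes depend on the probe and are not compared. For each gene, the kept probe with the highest mean signal stands for it, and the others are given where they differ.

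For the differences in IGF2, GHR and IGFBP2 described below, 4 of the 9 IGF2 probes, 1 GHR probe and 1 IGFBP2 probe, all of them in codons, are shown 5′ to 3′ as the array files give them. IGF2 lies on chromosome 2 at 1469183 to 1496417, GHR on chromosome 16 at 27126300 to 27422618 and IGFBP2 on chromosome 15 at 118822092 to 118850985 in Sscrofa11.1. The first pair of IGF2 probes overlaps by 38 bases, in capitals, and A_72_P537644 runs from the signal peptide codons into those of the mature peptide. O9318 lies in the codons of the B domain of the mature peptide and A_72_P544532 in those of the E peptide, which is cut off the precursor. A_72_P544532 and A_72_P414438 have the same sequence, so the 9 IGF2 probes are not 9 independent readings.
A_72_P537638 (IGF2): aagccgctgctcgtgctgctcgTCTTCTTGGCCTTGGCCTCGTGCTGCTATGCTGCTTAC
A_72_P537644 (IGF2): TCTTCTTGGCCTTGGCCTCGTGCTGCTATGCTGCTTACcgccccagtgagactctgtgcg
O9318 (IGF2): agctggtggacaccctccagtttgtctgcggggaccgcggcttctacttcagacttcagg
A_72_P544532 (IGF2): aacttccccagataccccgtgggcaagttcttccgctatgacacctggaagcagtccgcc
A_72_P441429 (GHR): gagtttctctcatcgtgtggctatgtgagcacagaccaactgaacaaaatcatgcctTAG
O12823 (IGFBP2): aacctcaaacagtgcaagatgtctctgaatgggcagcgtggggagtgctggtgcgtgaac
In the GHR probe the capitals mark the last 3 bases, the stop codon, so this probe reads the end of the coding sequence for the intracellular tail of the receptor. The IGFBP2 probe reads a cysteine-rich stretch near the C-terminal end, and it shares no 20-base run with the other 3 IGFBP2 probes, which overlap one another.

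**Figure D1:**
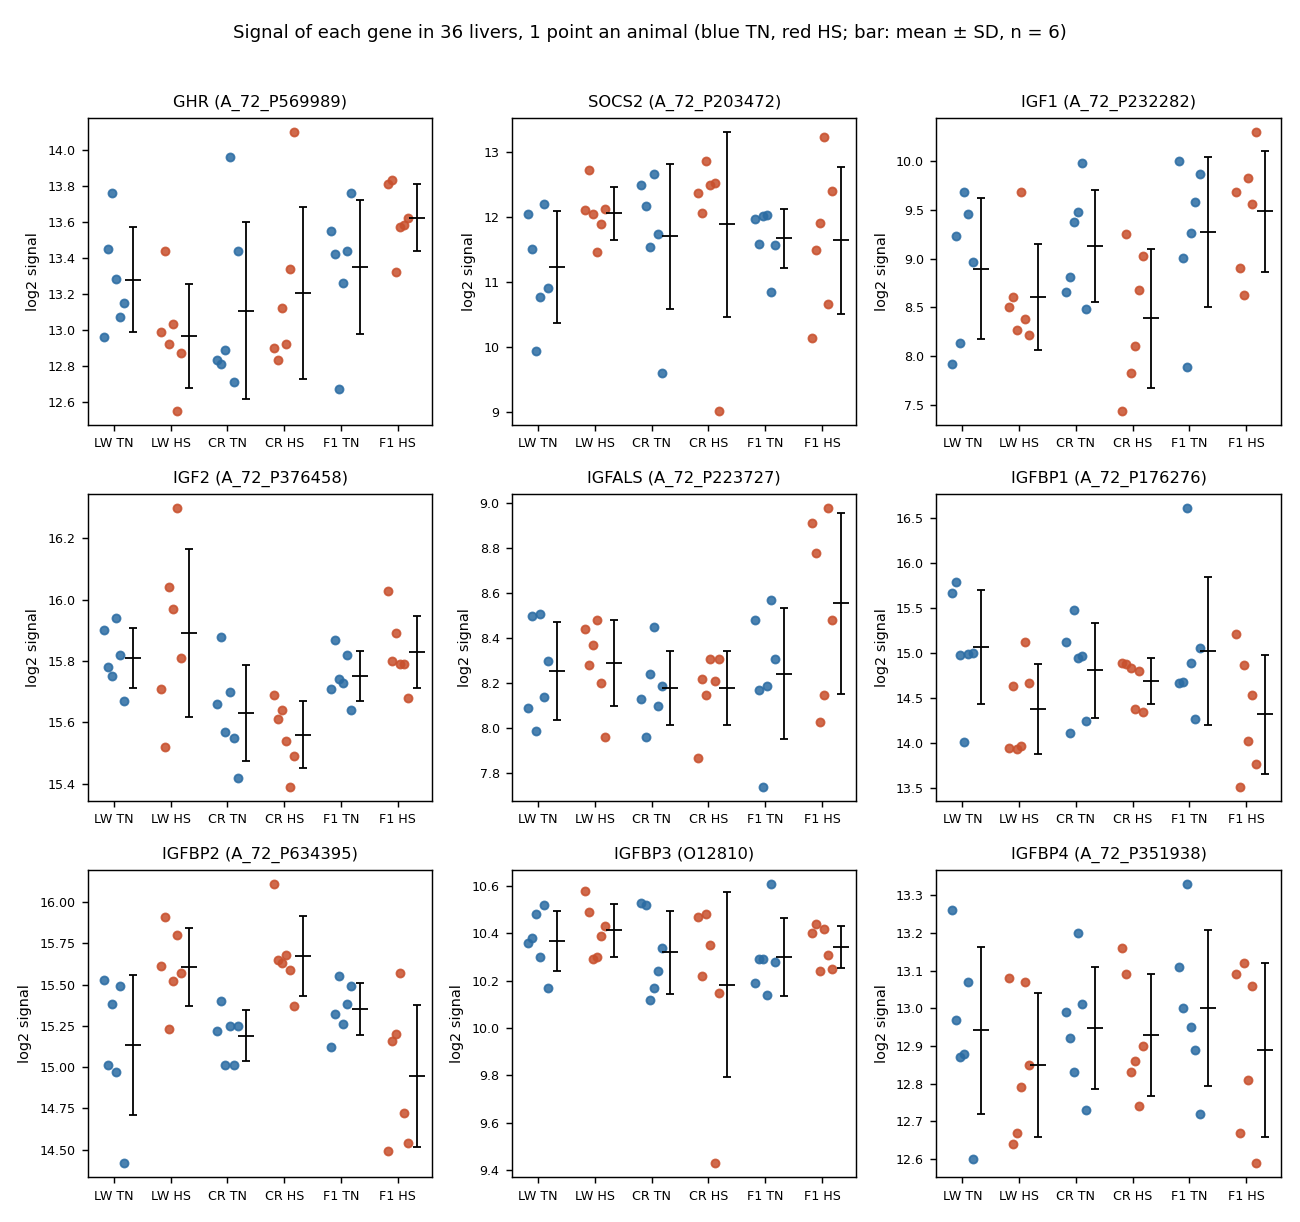
Log2 signal of the representative probe of each of the 9 genes in 36 livers, 1 point an animal, blue for TN and red for HS, with the mean and SD of the 6 animals of each group beside the points. Each panel has its own vertical axis. The CR groups had the lowest IGF2 medians (15.61 and 15.58), F1 HS had the highest GHR median (13.60) and the lowest IGFBP2 median (14.94), and SOCS2 had 1 far lower animal in each CR group, at 9.60 and 9.02.

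Heat left no gene of the axis past the threshold. With breed in the model, 0 of 35 probes were called between 18 HS and 18 TN livers, against 0.859% of all kept probes, and the smallest adjusted p was 0.172 (limma). At an unadjusted p under 0.05 there were 8 of 35, against 13.1% of all kept probes, and these were 5 of IGF2 and 3 of IGFBP1. The median HS minus TN over the 35 probes was 0.10, with 26 probes positive, against a median of 0.00 over all kept probes.

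**Figure D2:**
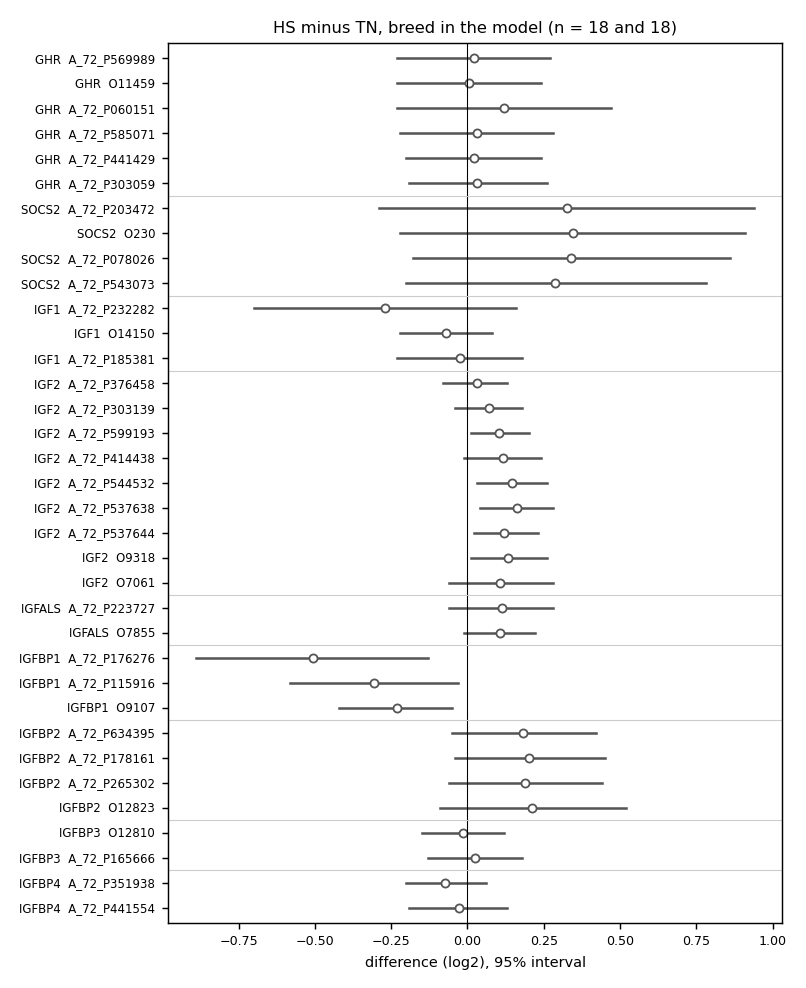
HS minus TN on the log2 scale for the 35 kept probes, 18 HS and 18 TN livers, with breed in the model. Points are limma estimates and lines 95% intervals. Open points mark probes that were not called, which here were all 35, with IGFBP1 at -0.51 to -0.23 and SOCS2 at 0.29 to 0.34.

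IGFBP1, a binding protein whose transcription insulin represses in liver, had the most negative HS minus TN of the 9 genes. Its representative probe A_72_P176276 ranged over TN animals from 14.01 through a median of 14.96 to 16.61, and over HS animals from 13.51 through 14.58 to 15.21. The groups overlapped widely, and 5 of 18 HS animals were above the TN mean of their breed. The difference was -0.51 (SE 0.19, 95% interval -0.89 to -0.13), with an adjusted p of 0.19 (limma). The other IGFBP1 probes gave -0.31 and -0.23, with 2 and 3 of 18 HS animals above the TN mean of their breed. The highest TN value, 16.61, belonged to F1 TN replicate 3, one of the 5 animals nearer to another breed. Without those 5 animals the difference of A_72_P176276 was -0.34 (SE 0.16, adjusted p = 0.299 by limma), that of A_72_P115916 went from -0.31 to -0.15 and that of O9107 from -0.23 to -0.19. On each of the 5 slides the HS mean of A_72_P176276 lay below the TN mean once breed means were removed, with differences from -0.87 to -0.27. The slide differences were -0.85 to -0.07 at A_72_P115916 and -0.33 to -0.10 at O9107.

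IGF2, the ligand that signals through the IGF1 receptor and is cleared by IGF2R, stayed within a narrow range. All 9 probes had a positive HS minus TN, between 0.03 and 0.16, with 5 at an unadjusted p under 0.05 and a smallest adjusted p of 0.172 (limma). The largest was at A_72_P537638, 0.16 (SE 0.06). For its representative probe A_72_P376458 the levels were 15.42, 15.74 and 15.94 (lowest, median and highest) in TN and 15.39, 15.75 and 16.30 in HS, with a difference of 0.03.

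SOCS2, which growth hormone induces and which in turn dampens GHR signalling, varied more between animals than between temperatures. Its representative probe A_72_P203472 was 9.60 at the lowest, 11.66 at the median and 12.66 at the highest in TN, and 9.02, 12.07 and 13.23 in HS. In 14 of 18 HS animals it was above the TN mean of the breed, and the 4 probes gave 0.29 to 0.34 with adjusted p no smaller than 0.642 (limma). With the 5 animals nearer to another breed left out they gave 0.45 to 0.55, with adjusted p no smaller than 0.366. The spread left after breed and temperature was 0.97, larger than in 99.5% of kept probes and against a median of 0.19. Between the lowest and the highest of the 36 livers the SOCS2 signal differed 18.5-fold, and the 4 probes followed one another at r of 0.97 to 0.99 over animals. The lowest TN and the lowest HS animals were both CR and both on slide 5, and they were the lowest of their groups at all 4 SOCS2 probes.

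IGF1 differed by -0.27 at its representative probe A_72_P232282 (95% interval -0.70 to 0.16, adjusted p = 0.662, limma). TN animals averaged 9.10 ± 0.67 and HS animals 8.83 ± 0.77 (mean and SD, 18 animals each), with medians of 9.24 and 8.66 and wide overlap. Its spread between animals was 0.66, larger than in 98.6% of kept probes. Leaving out the 5 animals nearer to another breed gave -0.44 (adjusted p = 0.306), and at O14150 it went from -0.07 to -0.16 (adjusted p = 0.275, limma). Within breeds the difference was -0.29 for LW, -0.74 for CR and 0.22 for F1 (0.04 for F1 and -0.52 for LW without those animals), with no interaction past the threshold (unadjusted p = 0.189, adjusted p = 0.995).

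For the remaining genes no probe had an unadjusted p under 0.05. GHR lay between 0.01 and 0.12 over its 6 probes. IGFALS gave 0.11 at both probes (0.02 and 0.04 without the 5 animals nearer to another breed), IGFBP2 0.18 to 0.21, IGFBP3, the main carrier of IGF1 in blood, -0.01 and 0.02, and IGFBP4, an inhibitory carrier, -0.07 and -0.03. None of these passed the threshold.

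The clearest difference within the axis was between breeds, in IGF2. CR livers held less IGF2 signal than LW livers at 8 of 9 probes, by 0.25 to 0.43, and the ninth, O7061, which the array names INS-IGF2, gave -0.27 with an adjusted p of 0.0503 (limma). Over the whole axis 11 of 35 probes (31.4%) were called for CR minus LW, 9 lower and 2 higher, against 26.5% of all kept probes, 12.9% lower and 13.6% higher. The share of the axis was thus near the background, and 8 of the 9 lower calls were IGF2.

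A_72_P537644, at the start of the mature IGF2 peptide, had the largest difference. In the 12 LW livers it ran from 11.47 through a median of 11.81 to 12.06, in CR from 11.06 through 11.37 to 11.60, and in F1 from 11.40 through 11.62 to 11.95. LW and CR overlapped between 11.47 and 11.60, and no CR animal reached the LW mean. CR minus LW was -0.43 (SE 0.06, adjusted p = 7.8e-06, limma), a ratio of 0.742. O9318 in the B domain codons gave -0.43 (SE 0.07, adjusted p = 7.58e-05), and A_72_P544532 in the E peptide codons gave -0.36 (SE 0.07). At 6 of the 9 probes 0 of 12 CR animals were above the LW mean.

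The IGF2 difference had the same sign on every slide at 8 of the 9 probes, from -0.11 to -0.67 for A_72_P537644, and O7061 was positive on slide 2 (0.15). Leaving out slide 4 lost the calls of 2 IGF2 probes, A_72_P376458 (adjusted p = 0.0562) and A_72_P303139 (adjusted p = 0.0762, limma). In TN livers alone 1 of the 9 probes was called lower in CR, against 2.4% of kept probes lower and 2.03% higher, and in HS livers alone all 9 were, against 8.63% lower and 8.02% higher. Leaving out the 5 animals nearer to another breed added calls at A_72_P537638 (-0.32) and O9318 (-0.37) in TN. Calls over all kept probes in TN then went from 1982 to 5673. The breed difference itself was not shown to differ with temperature, with an interaction p of 0.417 at A_72_P376458 and 0.63 at A_72_P537644 before adjustment. The smallest unadjusted interaction p over the 9 IGF2 probes was 0.124, and the adjusted p was no smaller than 0.995 (limma). With 1 value per gene, IGF2 was the only one of the 9 genes called, at -0.33 (SE 0.06, adjusted p = 0.000118).

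F1 livers lay between the parental breeds for IGF2. F1 minus CR was positive at all 9 probes, 0.19 to 0.28, and 3 were called: A_72_P537644 (0.28, adjusted p = 0.0125), A_72_P599193 (0.24, adjusted p = 0.0192) and A_72_P544532 (0.27, adjusted p = 0.0412, limma). These were the only calls of the axis for F1 minus CR, 3 of 35 (8.57%) against 1.5% of all kept probes, 0.759% higher and 0.746% lower. F1 minus LW was -0.18 to -0.01, with no call, and without the 5 animals nearer to another breed 3 probes were called lower, A_72_P537638 (-0.22), A_72_P537644 (-0.21) and O9318 (-0.26, adjusted p = 0.0129, limma). Calls over all kept probes for F1 minus LW then went from 8222 to 14486. Against the mean of the parental breeds F1 differed by 0.04 to 0.11. Without slide 3 or without slide 5 the number called for F1 minus CR was 0, and without the 5 animals nearer to another breed it was 1, A_72_P599193 (0.25, adjusted p = 0.0265). The call of A_72_P544532 was lost when any 1 of 16 arrays or any 1 of the 5 slides was left out. It was also lost with the authors' values (adjusted p = 0.0706, limma).

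**Figure D3:**
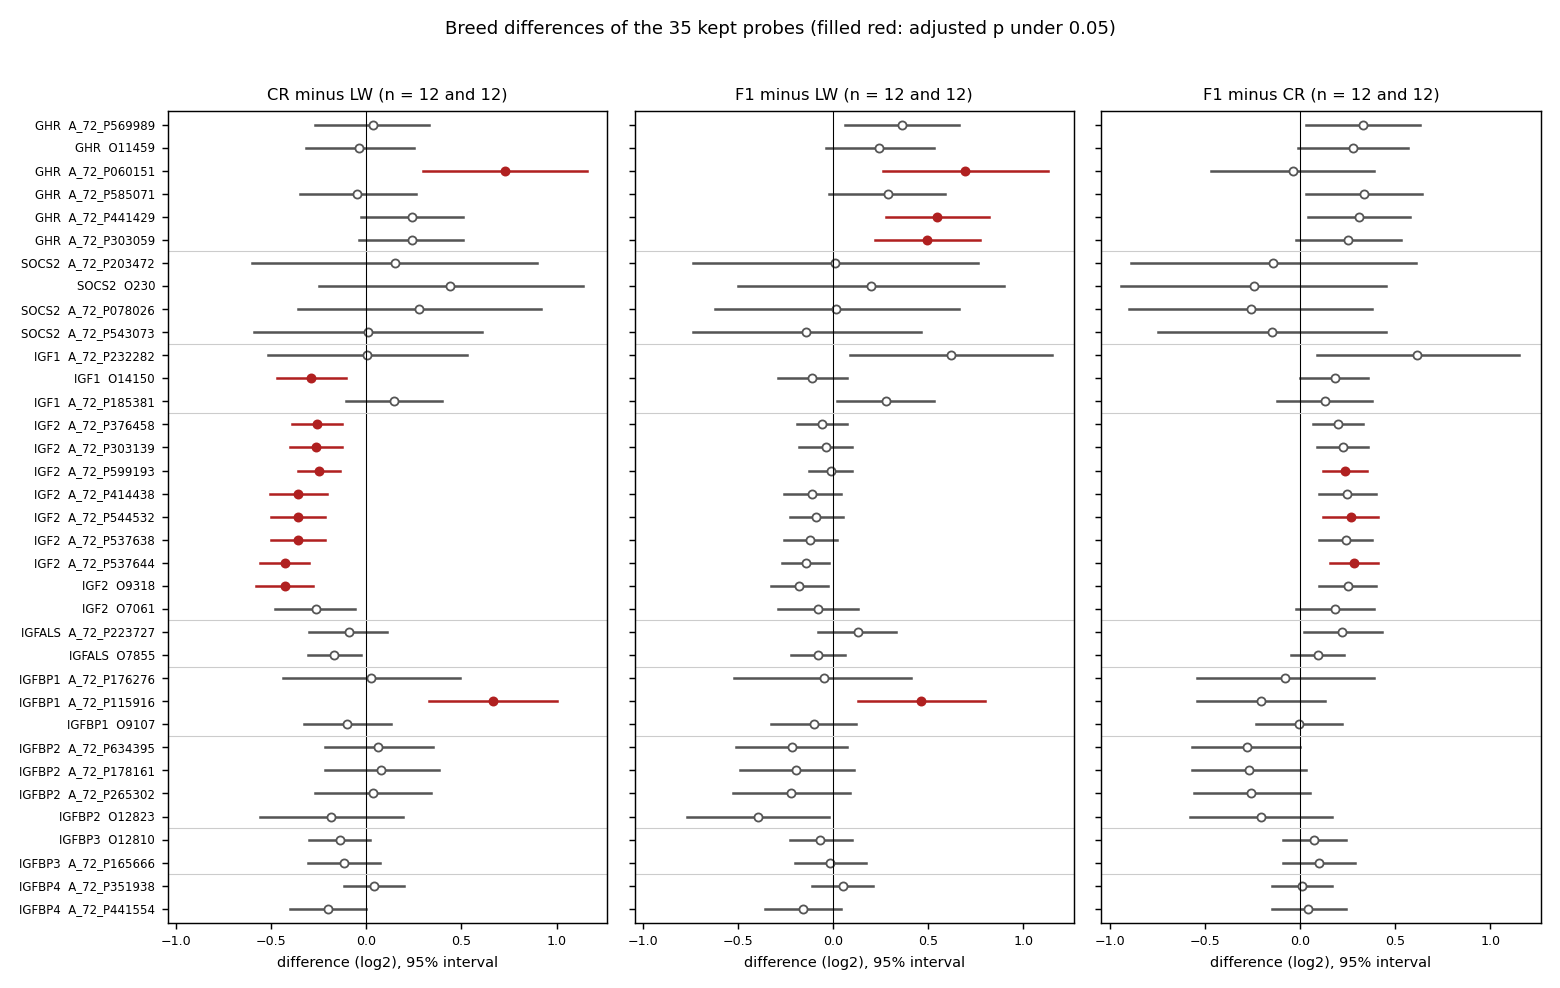
Differences between breeds on the log2 scale for the 35 kept probes, with 12 animals a breed and temperature in the model. Points are limma estimates, lines 95% intervals, and filled red points are called probes. IGF2 stood to the left of 0 in CR minus LW and to the right in F1 minus CR, and the called GHR probes stood to the right in F1 minus LW.

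GHR, the entry point of the axis, was higher in F1 than in LW at some of its probes. F1 minus LW was positive at all 6, from 0.24 to 0.70, and 3 were called: A_72_P060151 (0.69, SE 0.21, adjusted p = 0.0207), A_72_P303059 (0.49, SE 0.14, adjusted p = 0.011) and A_72_P441429 (0.55, SE 0.13, adjusted p = 0.00533, limma). A_72_P303059 and A_72_P441429 overlap. The representative probe A_72_P569989 gave 0.36 (adjusted p = 0.082). Of the whole axis, 4 of 35 probes (11.4%) were called for F1 minus LW, all higher, against 18.4% of kept probes, 9.12% higher and 9.23% lower.

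For A_72_P441429, whose sequence ends at the stop codon, LW animals ran from 10.65 through 11.10 to 11.56, CR from 10.82 through 11.21 to 12.06 and F1 from 10.70 through 11.79 to 11.97. The lowest F1 animal was TN replicate 3, which the first component placed nearer to another breed, and 11 of 12 F1 animals were above the LW mean. In F1 HS the 6 animals lay close together, between 11.74 and 11.86 (SD 0.05), whereas F1 TN ran from 10.70 to 11.97 (SD 0.46). The contrast was smaller at other GHR probes, with SD 0.188 in F1 HS and 0.374 in F1 TN at the representative probe A_72_P569989. At O11459 the SDs were 0.225 and 0.319. F1 minus LW at A_72_P441429 was positive on every slide, from 0.39 to 0.69. Without slide 3 none of the 3 GHR probes was called, and A_72_P060151 was also lost without slide 2 and without slide 5. Without the 5 animals nearer to another breed A_72_P441429 gave 0.65 (adjusted p = 0.000558).

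Against the mean of LW and CR, the 6 GHR probes were 0.26 to 0.43 higher in F1, and 0 of 35 probes of the axis were called, against 1.12% of all kept probes, with 8 at an unadjusted p under 0.05, against 15.2%. The smallest adjusted p was 0.0567, at A_72_P441429 (0.43, SE 0.12, limma). Without the 5 animals nearer to another breed this probe (0.52, adjusted p = 0.00325), A_72_P303059 (0.47, adjusted p = 0.0111) and IGF1 at A_72_P232282 (0.73, adjusted p = 0.0267) were called, while the number called over all kept probes went from 502 to 7624.

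For CR minus LW the GHR probes did not move together. A_72_P060151 was called (0.73, SE 0.21, adjusted p = 0.00981, limma), with all 12 CR animals above the LW mean, and the other 5 lay between -0.05 and 0.24. Over animals A_72_P060151 followed the other GHR probes at r of 0.66 to 0.81, and those followed one another at 0.87 to 0.97. It was lost without slide 3 (adjusted p = 0.0588). This call holds for 1 sequence and not for the gene as a whole, which gave 0.19 (SE 0.14, adjusted p = 0.348) with 1 value per gene.

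IGFBP1 showed the same kind of split. A_72_P115916 was higher in CR than in LW (0.67, SE 0.17, adjusted p = 0.00293, limma) and in F1 than in LW (0.46, adjusted p = 0.0463), with 12 of 12 CR and 11 of 12 F1 animals above the LW mean. LW animals ran from 10.17 through 10.87 to 12.15, CR from 11.13 through 11.61 to 12.17. The other probes gave 0.03 and -0.10 in CR and -0.05 and -0.10 in F1. On slide 1 CR minus LW at A_72_P115916 was -0.07, on the others 0.39 to 1.25, and without slide 3 the adjusted p was 0.0706. The F1 call was lost when any 1 of 17 arrays or any 1 of 4 slides was left out.

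IGF1 was called at 1 of its 3 probes for CR minus LW, O14150 (-0.29, SE 0.09, adjusted p = 0.0136, limma), with 1 of 12 CR animals above the LW mean. The other probes gave 0.01 and 0.15, and without slide 3 the adjusted p of O14150 was 0.125. At the representative probe A_72_P232282, F1 minus LW was 0.62 (adjusted p = 0.0911), with 11 of 12 F1 animals above the LW mean. A_72_P185381 gave 0.28 (adjusted p = 0.12) and, with the 5 animals nearer to another breed left out, 0.35 (adjusted p = 0.0498, limma). That omission called 14486 of all kept probes, against 8222 with all animals. At A_72_P232282 LW animals ran from 7.92 through 8.55 to 9.68 and F1 animals from 7.89 through 9.57 to 10.30.

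Over both temperatures, IGFALS, IGFBP2, IGFBP3, IGFBP4 and SOCS2 had no probe called between breeds with all 36 animals. Without the 5 animals nearer to another breed, calls were made at IGFALS O7855 (CR minus LW -0.19, adjusted p = 0.0172), IGFBP4 A_72_P441554 (CR minus LW -0.24, adjusted p = 0.0273, and F1 minus LW -0.30, adjusted p = 0.0121) and IGFBP2 O12823 (F1 minus LW -0.48, adjusted p = 0.0463, limma). Calls over all 44796 kept probes rose as well, from 11856 to 14779 for CR minus LW and from 8222 to 14486 for F1 minus LW. With all animals IGFALS came nearest at O7855, -0.17 in CR against LW (adjusted p = 0.0652, limma). IGFBP4 gave -0.20 and 0.04, IGFBP3 -0.14 and -0.12, IGFBP2 -0.19 to 0.08 and SOCS2 0.01 to 0.44 in the same comparison.

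IGFBP2, an inhibitory carrier made by hepatocytes, had the smallest unadjusted interaction p of the 9 genes, though no interaction passed the adjusted threshold. At A_72_P634395 LW TN ran from 14.42 through 15.20 to 15.53 and LW HS from 15.23 through 15.59 to 15.91. CR TN ran from 15.01 through 15.24 to 15.40 and CR HS from 15.37 through 15.64 to 16.11. F1 TN ran from 15.12 through 15.35 to 15.55 and F1 HS from 14.49 through 14.94 to 15.57. All 6 HS animals were above the TN mean of their breed in LW and in CR, and 1 of 6 in F1. HS minus TN came to 0.47 for LW (95% interval 0.14 to 0.81), 0.48 for CR (0.15 to 0.81) and -0.41 for F1 (-0.74 to -0.07).

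The moderated F test of the interaction at the 4 IGFBP2 probes gave unadjusted p of 0.000482, 0.00102, 0.00246 and 0.00526, and an adjusted p of 0.995 (limma). Across the array 0 of 44796 probes passed for the interaction, 0% against 0 of 35 in the axis, while 3.74% of all probes and 6 of 35 in the axis, 4 of IGFBP2 and 2 of GHR, had an unadjusted p under 0.05. Of the 4 IGFBP2 probes 3 overlap and the correlation among the 4 over animals was 0.87 to 0.96, so they amount to little more than 1 reading of the gene. Without the 5 animals nearer to another breed, the differences at A_72_P634395 were 0.39, 0.48 and -0.31, with an unadjusted interaction p of 0.00248 and an adjusted p of 1. Within single breeds, 0 of 35 probes were called in LW, CR or F1, against 0%, 0% and 0.00893% of kept probes, and 7, 6 and 6 had an unadjusted p under 0.05 (limma), against 5.12%, 7.4% and 9.31% of kept probes.

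**Figure D4:**
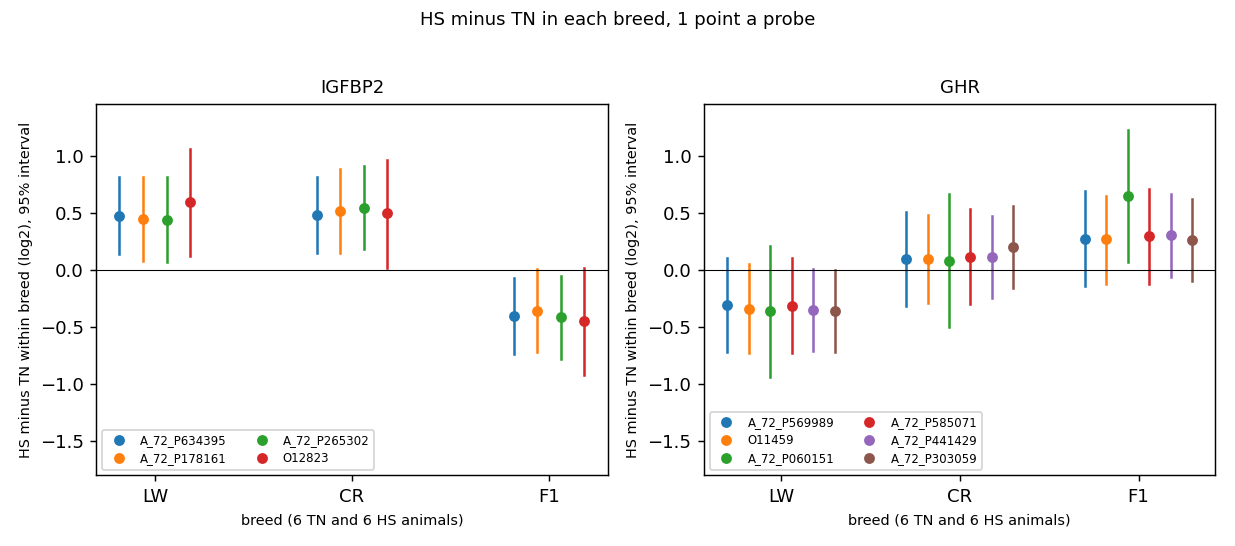
HS minus TN within each breed on the log2 scale, for the 4 IGFBP2 probes (left) and the 6 GHR probes (right), 6 HS and 6 TN animals a breed. Points are limma estimates and lines 95% intervals. IGFBP2 lay above 0 in LW and CR and below 0 in F1, and GHR lay below 0 in LW and above 0 in F1, with adjusted interaction p of 0.995 for both genes. Without the 5 animals nearer to another breed the GHR values of F1 were 0.04 to 0.44.

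In HS livers alone, all 4 IGFBP2 probes were lower in F1 than in LW, with differences from -0.91 to -0.59 and adjusted p from 0.0205 to 0.0437 (limma). In the same livers 4 of 6 GHR probes were higher in F1 than in LW, 0.55 to 1.20 over all 6, with the smallest adjusted p of 0.00961 at A_72_P441429 (0.87, SE 0.18). A_72_P569989 was no longer among them without the 5 animals nearer to another breed (0.56, adjusted p = 0.0691). In TN livers alone 0 of 35 probes were called for F1 minus LW, and 0 of 35 had an unadjusted p under 0.05, against 17.3% of kept probes. The background was 6.34% of kept probes in HS, 2.9% higher and 3.44% lower, where 8 of 35 (22.9%) of the axis were called, and 0.696% in TN. For CR minus LW the axis had 13 of 35 (37.1%) called in HS against 16.6%, and 1 of 35 (2.86%) in TN against 4.42%. For F1 minus CR it had 0 of 35 in both, against 0.0826% in HS and 0.0759% in TN, with 18 and 4 at an unadjusted p under 0.05, against 8.64% and 8.47%. The smallest adjusted p of F1 minus CR was 0.066, at IGFBP2 A_72_P634395 in HS (-0.72).

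HS minus TN at the 6 GHR probes ranged from -0.36 to -0.31 for LW, from 0.08 to 0.20 for CR and from 0.26 to 0.64 for F1. Of the 5 animals nearer to another breed 3 were F1, and without these 5 the F1 values were 0.04 to 0.44, with A_72_P569989 going from 0.27 to 0.04, and the LW values -0.45 to -0.35. The unadjusted interaction p were then 0.0724 to 0.207. Of LW HS animals 1 of 6 was above the LW TN mean at A_72_P441429, of CR 2 of 6, and of F1 6 of 6. The interaction had unadjusted p of 0.0366 to 0.13 over the 6 probes and an adjusted p of 0.995 (limma). IGFALS, a growth hormone target, had its highest values in F1 HS, from 8.03 through 8.63 to 8.98 at A_72_P223727 against 7.74 through 8.25 to 8.57 in F1 TN (difference 0.31, adjusted p = 0.492). This difference was 0.06 without the 5 animals nearer to another breed (adjusted p = 0.949, limma). LW HS and CR HS animals differed from their TN groups by 0.03 and -0.00.

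Because the 9 genes varied between animals of a group, their levels were compared over the 36 livers after group means were removed. Of 36 pairs, 5 had a Benjamini-Hochberg adjusted p under 0.05 in a permutation test of Pearson's r with 100000 permutations of animals within groups, two-sided, for which 1e-05 is the smallest p it can give. IGF1 and IGFALS, both induced by growth hormone, were correlated at r = 0.53 (permutation p = 0.00224, adjusted p = 0.0384), Spearman's rho 0.47 (permutation p = 0.00863, adjusted p = 0.0519). Without the 2 animals farthest from the IGF1 median r was 0.41. GHR and IGFALS gave r = 0.46 (permutation p = 0.00169, adjusted p = 0.0384), rho 0.55 (permutation p = 0.00038, adjusted p = 0.0137) and r = 0.43 without the 2 farthest animals.

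IGFALS and IGFBP2 ran in opposite directions, with r = -0.55 (permutation p = 0.00427, adjusted p = 0.0384), rho -0.55 (permutation p = 0.00423, adjusted p = 0.0508) and r = -0.53 without the 2 farthest animals. IGFBP1 and IGFBP4 gave r = 0.53 (permutation p = 0.00427, adjusted p = 0.0384), rho 0.49 (permutation p = 0.00689, adjusted p = 0.0519) and 0.46 without the 2 farthest. IGF2 and IGFBP4 gave r = 0.45 (permutation p = 0.00636, adjusted p = 0.0458), rho 0.45 (permutation p = 0.0105, adjusted p = 0.054) and 0.37 without the 2 farthest. By rho alone IGFBP2 and IGFBP3 also passed, at 0.53 (permutation p = 0.00077, adjusted p = 0.0139), with r = 0.38 (permutation p = 0.0116, adjusted p = 0.0698).

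With slide means removed as well, 3 pairs passed, and IGF2 with IGFBP4 was at r = 0.23. Without the 2 farthest animals none of the 5 pairs passed, and only GHR with IGFBP4 did (r = -0.60, permutation p = 0.00044). Within TN and within HS animals taken apart, and without the 5 animals nearer to another breed, 0 of 36 pairs had an adjusted p under 0.05, on 18, 18 and 31 animals. Within TN and HS the r of IGF1 with IGFALS was 0.72 and 0.36, of GHR with IGFALS 0.56 and 0.38, and of IGFALS with IGFBP2 -0.46 and -0.62, so the signs were kept in both. SOCS2 and IGF1 were at r = -0.08.

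**Figure D5:**
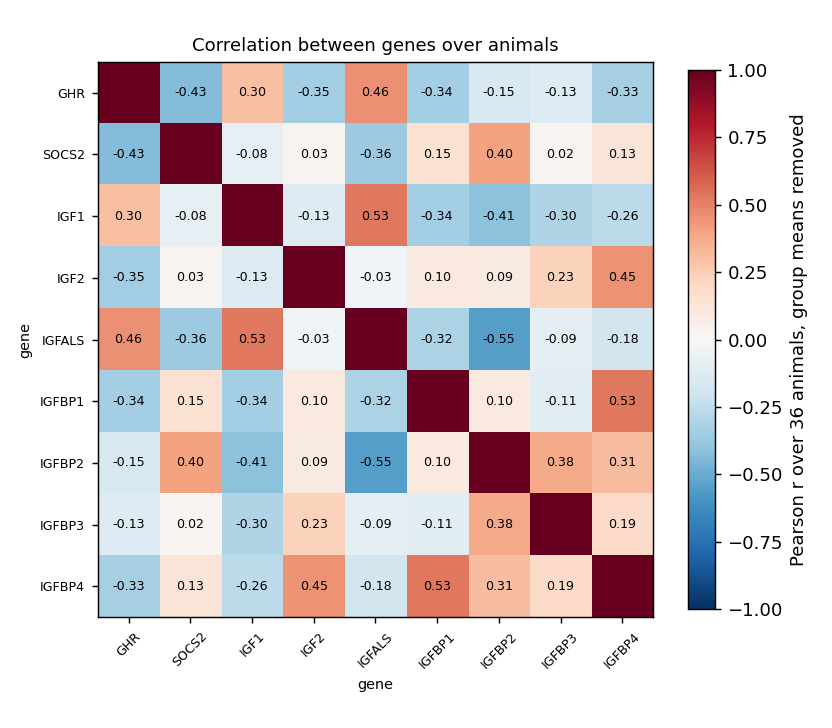
Pearson r between the representative probes of the 9 genes over 36 livers, with the mean of each breed and temperature group removed. Red is positive and blue negative, and each cell holds its r, from -0.55 for IGFALS with IGFBP2 to 0.53 for IGF1 with IGFALS and for IGFBP1 with IGFBP4.

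Other genes of the pathway were taken from 4 lists. Of the growth hormone receptor signalling list, 16 of 18 genes were kept with 56 probes. Heat called 0 of them, against 0.859% of kept probes, with 6 at an unadjusted p under 0.05 (limma), against 13.1%. The nearest were CISH, a feedback inhibitor and STAT5 target (0.40, adjusted p = 0.0966), and STAT5A (0.15, adjusted p = 0.12). For CR minus LW 22 of 56 were called (39.3% against 26.5%), 8 higher and 14 lower. GHITM, a mitochondrial membrane protein that is on the list by its name, had all 11 of its probes called, 2 of them positive, and without it, a setting chosen after seeing the data, 11 of 45 probes were called (24.4%). JAK2, the kinase bound to GHR, was lower in CR (-0.43, 2 of 3 probes called) and higher in F1 than in CR (0.52, SE 0.09, adjusted p = 0.00245, 1 of 3 probes). The phosphatase PTPN6 was lower in CR (-0.52) and in F1 (-0.34) than in LW, with 2 of 4 probes called in each. PTPN1, which removes phosphate from the insulin receptor and JAK2, was higher in CR at 1 of 5 probes (0.57), and PTPN11 at 1 of 3 (0.23). For F1 minus LW 6 of 56 were called (10.7% against 18.4%). Besides PTPN6 they included GHITM (-0.42, 1 of 11) and the adaptor SH2B1 (0.20, 1 of 2).

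Of the IGF receptor and signalling list, 17 of 22 genes were kept with 53 probes. Heat called 0, against 0.859% of kept probes, with 11 at an unadjusted p under 0.05 (limma), against 13.1%. FOXO1, a transcription factor that insulin keeps out of the nucleus, gave 0.15 (adjusted p = 0.112) and the insulin and IGF receptor substrate IRS1 0.14 (adjusted p = 0.168). For CR minus LW 19 of 53 were called (35.8% against 26.5% of all kept probes), 10 higher and 9 lower, against 13.6% higher and 12.9% lower. The kinase AKT1 was lower (-0.59, its only probe), as was the adaptor GRB2 (-0.42, 4 of 4 probes called, 1 of them positive). MTOR (0.24, 1 of 2 probes) and the receptor adaptor GRB10 (0.26, 5 of 7 probes, 3 of the 7 positive) were higher at the probes with the smallest p. For F1 minus LW 10 of 53 were called (18.9%), near the 18.4% of all kept probes. Among them were the receptor IGF1R (0.36, SE 0.10, adjusted p = 0.0107, 1 of 3 probes), FOXO3 (0.50, 1 of 3), AKT1 (-0.29) and GRB2 (-0.20, 4 of 4, 1 of them positive). FOXO3 was also the only one of the list called against the parental mean (0.37, adjusted p = 0.0478). That was 1 of 53 probes (1.89%), against 1.12% of all kept probes.

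Of the other IGF binding proteins, their proteases and regulators, 14 of 17 genes were kept with 34 probes. PLG, plasminogen, was the only gene of the 4 lists called for heat (0.21, SE 0.05, adjusted p = 0.0399, limma), at 1 of 3 probes, and all 3 were positive. The called probe was 1 of 34 on this list (2.94%), against 0.859% of all kept probes. All 3 PLG probes were lower in CR (-0.42) and in F1 (-0.31) than in LW. IGFBP6, which binds IGF2 by preference, was lower at all 4 probes in CR (-0.54) and F1 (-0.51). The lysosomal protease CTSD (-0.50 and -0.47) and IGFBP7 (-0.37 and -0.29) were lower as well, at 1 and 2 of 3 and at 3 and 3 of 5 probes. CTCF, which binds the imprinting control region next to IGF2, was higher in CR at 1 of 2 probes (0.18) and lower in F1 at 1 of 2 (-0.16). In all, 12 of 34 were called for CR minus LW (35.3% against 26.5% of all kept probes), 11 of them lower, against 12.9% lower. For F1 minus LW it was 15 of 34 (44.1% against 18.4%), all lower, against 9.23% of all kept probes lower. The median differences of this list were -0.15 and -0.17.

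Of the fasting and insulin responsive liver genes, 16 of 20 were kept with 68 probes. Heat called 0, against 0.859% of kept probes, with 6 at an unadjusted p under 0.05 (limma), against 13.1%. CPT1A, which admits fatty acids to mitochondria for oxidation, gave -0.69 (adjusted p = 0.119) and the transcription factor CEBPB -0.25 (adjusted p = 0.267). For CR minus LW 8 of 68 were called (11.8% against 26.5%). TXNIP, which rises with glucose, was lower (-0.74, 5 of 11 probes), as were CEBPB (-0.45, 1 of 2 probes) and the amino acid response factor ATF4 (-0.34, 1 of 7 probes), while the lipogenic factor SREBF1 was higher at 1 of 3 probes (0.67). For F1 minus LW 2 of 68 were called (2.94% against 18.4%), TXNIP (-0.49, 1 of 11) and ASNS, the asparagine synthetase (-0.36).

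Between F1 and CR the JAK2 probe was the only call in the 4 lists. It was 1 of 56 probes of its list (1.79%), against 1.5% of all kept probes. The nearest others were AKT1 (0.30, adjusted p = 0.0738), CTCF (-0.19, adjusted p = 0.0753), IGF2R, the clearance receptor of IGF2 (-0.19, adjusted p = 0.084), PDK4 (0.33, adjusted p = 0.239), IGFBP7 (-0.11, adjusted p = 0.268) and CEBPB (0.27, adjusted p = 0.39, limma).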

How the data were processed

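The authors deposited 1 scanner table per array from Agilent Feature Extraction 10.10.1.1, with spot signals as intensity on a linear scale, not normalized between arrays. A log2 table was deposited too, with 42051 probes that the methods describe as quantile normalized. Its column medians were 7.656 to 7.659. It was centred per probe (probe means 7.6 at the 5th and 7.73 at the 95th percentile), so it served only as an alternative for differences. Each of the 5 slides carried as many TN as HS arrays. Median signals were 70.0 to 92.0 units against a background of 18.0 to 25.0, 39644 to 44025 of 60306 spots were well above background, and 0 were saturated. Precision is limited by how many arrays there were.

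Median signals were log2 transformed and quantile normalized over non-control spots, whereas the methods name the steps in the other order. Non-uniform spots, 107 in all, were treated as missing, none of them a probe of the 9 genes. A probe had to be well above background on 6 arrays or more, which 44796 of 60305 were, and 22868 of these carried 1 of 11236 symbols through the files and the RefSeq gene table of Sscrofa11.1. Coordinates are those of that assembly, and probe positions and promoters were not analysed here.

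Linear models were fitted with limma 3.58.1 under R 4.3.3 (eBayes moderated two-sided tests, Benjamini-Hochberg over kept probes, threshold 0.05) to breed and temperature, and to the 6 group means for the interaction and within-group contrasts. The labels name no pen, day of slaughter or parents, so these random terms of the study could not be fitted. The code was tested on simulated data. Alternatives were other background, scaling, filter, slide, weight and spread settings, the authors' table, 1 value per gene, and omission of single arrays, single slides and the 5 animals nearer to another breed.

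The members, gene lists and tests were chosen with earlier results of these data known. All kept probes of the 9 genes were counted, with values by sample for the brightest probe of each (for IGF2, of those named IGF2) and for others where they disagreed. Of each list and comparison at most 5 genes with a called probe were named by smallest p, or the 2 with the smallest p where none was called, for heat and the breed pairs. Some genes that this rule names are not reported here. Probes other than the brightest that are given by sample (A_72_P537644, A_72_P441429, A_72_P115916) were chosen after their values were seen.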

Additional observations from a re-analysis of the deposited data

Results flagged for a closer look

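In 7 of 54 groups of 6 animals (9 genes in 6 groups), the lowest or highest animal stood apart by more of the group's range than the 95% critical value of Dixon's test, which chance alone passes in about 1 of 20 groups. All values are log2 signals of representative probes. SOCS2 was 9.60 in CR TN replicate 6, with the next animal at 11.53 (gap over range 0.629), and 9.02 in CR HS replicate 6, with the next at 12.05 (0.792). Both arrays were on slide 5. The other 3 SOCS2 probes were at 7.07, 5.96 and 7.85 in the first and 6.93, 5.89 and 7.83 in the second. IGFBP1 was 16.61 in F1 TN replicate 3, with the next at 15.05 (0.663), and this animal also had the lowest GHR signal of its group (12.67) and lay nearer to another breed on the first component. IGF1 was 9.68 in LW HS replicate 4, with the next at 8.61 (0.734). IGFALS was 7.87 in CR HS replicate 1, with the next at 8.15 (0.637). IGFBP3 was 9.43 in CR HS replicate 5, with the next at 10.15 (0.683), and 10.61 in F1 TN replicate 5, with the next at 10.29 (0.671).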

How the results depend on the processing

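For heat and for the interaction, 0 of 35 probes were called under every alternative run and with any 1 array left out. For CR minus LW (11 called), single arrays left out gave 11 to 13, slide 3 left out 8, slide 4 left out 9, leaving out the 5 animals nearer to another breed 14, and 1 value per gene 1 gene. For F1 minus LW (4 called), single arrays gave 3 to 5, array weights 9, without the 5 animals 10, slide 3 left out 0, slide 5 left out 2 and 1 value per gene 1. For F1 minus CR (3 called), single arrays gave 2 to 6, slide as a block 6, without the 5 animals 1, without slides 3, 4 and 5 0, 1 and 0, and 1 value per gene 1. Against the parental mean (0 called), single arrays gave 0 to 3, the authors' values 1, probes well above background on all 36 arrays 1, slide as a block 1, array weights 2, without the 5 animals 3 and without slide 4 1. The cause was not tested. No difference reversed while called. Over all kept probes, heat gave 385 calls, and 70 to 148 with 1 slide left out or 210 with no breed term. F1 minus LW gave 1576 in place of 8222 without slide 3, and CR minus LW 5688 in place of 11856. Without the 5 animals F1 minus LW gave 14486 and CR minus LW 14779. In place of 5 correlations past the threshold there were 3 with slide means removed, 1 without the 2 farthest animals, and 0 in TN alone, in HS alone or without the 5 animals. The 1 without the 2 farthest animals was GHR with IGFBP4, which was not among the 5. No paired analysis was possible because replicate numbers follow accession order and pair no animals. Arrays per group and the spread between animals limit what could be detected, most of all for SOCS2, IGF1 and IGFBP1.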

Other observations

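The genes whose representative probe followed each member most closely over the 36 livers, group means removed, are given as a description out of 11217 symbols. SOCS2 was closest to PNPLA2 (r = 0.82), the adipose triglyceride lipase, SEPSECS (0.82) and FZD4 (0.81). IGFBP1 was closest to FST (0.80), which encodes follistatin, SLC38A2 (0.75), an amino acid transporter, and LRRC8A (0.69). GHR was closest to MGC152190 (0.78), c11orf2 (0.74) and FAM158A (0.73). IGF2 was closest to PLG (0.77), ADAT3 (0.74) and SERPINF1 (0.67). IGFBP3 was closest to TBXA2R (0.75), ADAMTS9 (0.71) and PRSS23 (0.67), and IGFBP4 to WDR82 (0.77), GALNT2 (0.63) and EIF3E (0.61). IGFALS was closest to GLO1 (0.68), TMEM86B (0.66) and AGPAT2 (0.64), IGFBP2 to TSPAN12 (0.63), KLHL31 (0.61) and PROC (0.58), and IGF1 to KCNA5 (0.63), COL18A1 (0.63) and SAMD15 (0.61). These r share the arrays and their slides and carry no test.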
